A study of Mus musculus with 12 samples.

Results

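Long intergenic noncoding RNAs (lincRNAs) are transcripts made from genes that lie between protein-coding genes and hold no long open reading frame. Most are spliced and polyadenylated like mRNA, but they are usually shorter, have fewer exons and are present at lower levels, and many stay in the nucleus. A few are known to organize nuclear bodies, to act on a neighboring gene, or to serve as hosts from which small nucleolar RNAs are cut, whereas the function of most is unknown. The lincRNAs described here are the rows of the count table with the biotype lincRNA, outside the X and Y chromosomes, whose mean raw count over all 12 libraries was at least 50. This held for 70 of 3707 lincRNA rows, of which 835 had any count, in a table of 47643 genes. They were chosen by their mean raw count over all groups, so that a high level was required and a change between groups was not. The last lincRNAs inside the threshold were Pvt1 with a mean count of 50.6, C430042M11Rik with 51.8 and Gm29367 with 52.0, and the first outside were Gm26809 with 49.9, Gm16576 with 49.7 and Gm28100 with 49.5.

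The study asked how eosinophils act on osteoclast differentiation, and the bulk RNA-seq. comprised 12 libraries in 3 groups of 4. In all groups, osteoclasts, the bone-resorbing cells of the myeloid lineage, were grown with M-CSF and RANKL from BALB/c WT monocytes derived from bone marrow (BMMs). OCsCtr cultures received no stimulus, OCsEo cultures received 2 sorted eosinophils per BMM, and OCsEoS cultures received eosinophil supernatant diluted 1:2. Eosinophils or supernatant were added on day 0 and washed off after 48 h, and RNA was taken from all cultures on day 3. The eosinophils came from IL-5tg/4get mice, which overproduce eosinophils, so that donor and recipient cells differed in genotype. The labels give no age and do not say whether replicates came from separate mice, and p-values measure the spread between these libraries.

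Total counts ranged from 27837530 to 40327869 per library, and 3 counts, taken as the floor, corresponded to 0.0744 to 0.108 CPM, the counts scaled to a common library size. Osteoclast markers were present in every library, with a summed level of 28360 to 34500 CPM in OCsCtr, 18090 to 23210 CPM in OCsEo and 14940 to 22170 CPM in OCsEoS. In each stimulated group 8 of 10 were called lower, with an adjusted p under 0.05 (edgeR) and an absolute log2 fold change over 0.5. Dcstamp and Nfatc1 were lower in both groups too, under the fold threshold. Their log2 fold changes were -0.36 and -0.42 in OCsEo (edgeR, adjusted p = 0.00778 and 0.000935) and -0.32 and -0.37 in OCsEoS (edgeR, adjusted p = 0.0137 and 0.00174). The summed level of 10 eosinophil markers was 57.1 to 73.7 CPM in OCsCtr, 60.1 to 82.2 CPM in OCsEo and 49.3 to 55.5 CPM in OCsEoS, and that of 8 neutrophil markers was 310.5 to 450.9, 452 to 604 and 354.6 to 421.9 CPM. Single markers moved within these sums. Most of the eosinophil sum was Ccr3 (59.6, 48.7 and 50.7 CPM on average in OCsCtr, OCsEo and OCsEoS), whereas Alox15 rose from 0.30 to 10.98 CPM and Siglecf from 0.428 to 2.94 CPM in OCsEo, and Prg2 fell from 5.53 to 0.815 CPM in OCsEoS. The defining eosinophil gene Epx was at most 0.479 CPM in OCsEo and 0 in all OCsEoS libraries. The neutrophil genes Elane and Camp were called higher in OCsEo, where Ngp and S100a9 had log2 fold changes of 0.415 and 0.336 (edgeR, adjusted p = 0.0164 and 0.0355). Of the macrophage genes, Cd14 was called higher in both stimulated groups, Adgre1 and Mrc1 were called higher in OCsEoS, and Csf1r was called lower in OCsEoS. Adgre1 and Csf1r moved the same way in OCsEo under the fold threshold, with log2 fold changes of 0.465 and -0.445 (edgeR, adjusted p = 0.00211 and 0.000449). No marker of these lists was at 0 in all libraries, and the part of a changed cell composition in the lincRNA results was not tested. In bulk samples, fewer cells of a type and less RNA per cell cannot be told apart.

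The genomic windows of the lincRNAs that were called in both stimulated groups are shown first, because they are the lincRNAs called against OCsCtr with either stimulus. RefSeq gives windows of 300 bases on GRCm38.p6, 250 before and 50 after a transcription start, for 41 of the 70 lincRNAs. Capitals mark matches on either strand to AP-1 (TGANTCA), PU.1 (GAGGAA), NFAT (GGAAAA), the M-box (TCACGTG) or NF-kB (GGGANTTCC), motifs of factors that are active in osteoclasts. AU020206 (chr7:75782071-75782370, minus strand) held 1 PU.1 match. 1110002J07Rik (chr10:66920335-66920634, minus strand) held 1 match each to PU.1, AP-1 and NFAT. Malat1 (chr19:5802623-5802922, minus strand) held 1 PU.1 match.
AU020206: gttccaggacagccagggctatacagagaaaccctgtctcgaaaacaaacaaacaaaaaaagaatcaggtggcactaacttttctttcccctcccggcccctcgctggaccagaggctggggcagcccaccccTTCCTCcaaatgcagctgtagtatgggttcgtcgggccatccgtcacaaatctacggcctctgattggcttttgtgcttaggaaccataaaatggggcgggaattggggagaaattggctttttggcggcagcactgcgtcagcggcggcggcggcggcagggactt
1110002J07Rik: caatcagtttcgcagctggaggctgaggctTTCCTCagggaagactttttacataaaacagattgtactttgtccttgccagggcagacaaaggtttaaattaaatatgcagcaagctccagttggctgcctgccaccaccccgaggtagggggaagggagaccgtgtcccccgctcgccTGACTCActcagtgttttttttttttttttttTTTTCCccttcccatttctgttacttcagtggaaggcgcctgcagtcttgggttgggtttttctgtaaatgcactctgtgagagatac
Malat1: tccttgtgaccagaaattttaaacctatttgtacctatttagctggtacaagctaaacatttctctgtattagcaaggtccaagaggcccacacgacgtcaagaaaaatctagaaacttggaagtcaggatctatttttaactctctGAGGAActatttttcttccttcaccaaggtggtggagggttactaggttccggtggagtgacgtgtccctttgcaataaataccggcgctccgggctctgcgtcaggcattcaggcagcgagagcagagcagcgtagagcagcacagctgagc
Over the 45 windows of lincRNAs, PU.1 letters were found in 31.1%, against 28.2% of all 31396 RefSeq windows, and AP-1 letters in 8.89% against 7.84%. The shares were 22.2% against 23.3% for NFAT, 6.67% against 3.73% for the M-box and 2.22% against 1.71% for NF-kB. The windows of Dubr and Lockd held none of these motifs, and that of AI839979 held 3 PU.1 matches and 1 NFAT match, of which 1 pair overlapped. For Gm19705, the window at chr1:136683379-136683678 held 1 NFAT match and that at chr1:136683146-136683445 held none. Their RefSeq starts lie 12860 and 12627 bases from the gene start in the count table. These matches describe the letters of the windows and were not tested for binding.

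The 70 lincRNAs took a small and even share of the transcriptome. Together they held 0.121 to 0.132% of all counts in OCsCtr, 0.113 to 0.130% in OCsEo and 0.124 to 0.132% in OCsEoS, so that the groups overlapped. Within that share, Gpr137b-ps, AI662270, Gm26917, 1810058I24Rik and 1700020I14Rik held 73.1 to 76.0% of the counts. Per kb of gene length, AI662270 was highest with 198.2 CPM per kb, followed by Gpr137b-ps with 109.5, 1810058I24Rik with 45.4 and Gm26917 with 38.9. The next levels were 19.7 CPM per kb for C330006A16Rik, 16.2 for Gm43351, 12.5 for 2010320M18Rik, 11.3 for Bvht, 9.95 for 2210008F06Rik and 7.71 for Epb41l4aos. The lowest were Pvt1 with 0.215 and Neat1 with 0.195 CPM per kb, both long genes. All 70 lincRNAs were detected in 11 of the libraries, and Gm1976 had 0 counts in OCsEoS replicate 4.

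**Figure D1:**
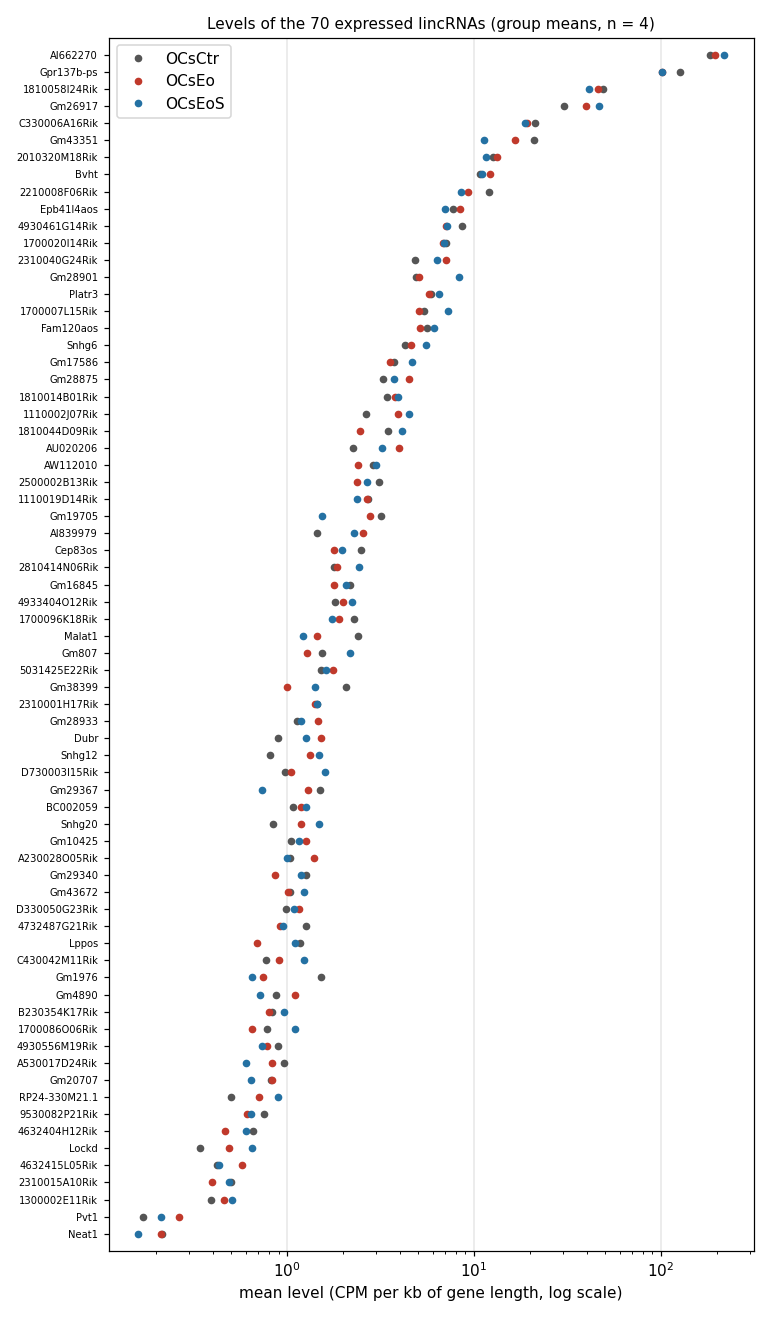
Mean level of each of the 70 lincRNAs in CPM per kb of gene length (log scale) in OCsCtr, OCsEo and OCsEoS, 4 libraries each, ordered by the mean over all libraries. The levels run from 0.195 (Neat1) to 198.2 (AI662270), and the 3 points of a row lie close together beside this range.

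Compared with protein-coding genes, the lincRNAs had few exons. Their longest transcripts in GENCODE vM21, known for 69 of 70, had a median of 2 exons and 1909 bases, and 24.6% had 1 exon. For the 12207 protein-coding genes tested, of which 12194 had a transcript, the medians were 8 exons and 3353 bases, and 6.09% had 1 exon. The median GC content was 47.2% for lincRNAs and 49.7% for protein-coding genes. The biotype depended on the annotation release, because 55 of the 70 were still lincRNA in vM21, 5 were processed transcripts, 4 bidirectional promoter lncRNAs, 3 antisense genes and 2 transcribed pseudogenes, and 1 was not in vM21. Of the 70, 26 overlapped another gene of the table, and 11 of these a protein-coding gene. Because the strand setting of the counting is not given in the sources used here, reads of such pairs cannot be told apart.

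The first comparison addressed what eosinophils changed. In OCsEo, 4 lincRNAs rose and 2 fell against OCsCtr, at an adjusted p under 0.05 (edgeR's quasi-likelihood test, Benjamini-Hochberg over all 13681 genes tested) and an absolute log2 fold change over 0.5. AU020206, AI839979, Dubr and 1110002J07Rik rose, and Malat1 and Gm38399 fell. The background was 3.27% of all genes called higher and 2.61% called lower, beside 5.71% and 2.86% of the lincRNAs. Among all genes outside X and Y with the same mean count of 50, 6.97% were called in either direction, beside 8.57% of the lincRNAs. The median log2 fold change was -0.03 over the lincRNAs and -0.01 over all genes tested. The groups did not overlap for 11 lincRNAs (15.7%), beside 21.5% of all genes.

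In the second comparison, of eosinophil supernatant, 4 lincRNAs rose and 4 fell in OCsEoS against OCsCtr by the same edgeR test. Lockd, 1110002J07Rik, Gm26917 and AU020206 rose, and 2210008F06Rik, Gm43351, Malat1 and Gm19705 fell. Over all genes, 3.63% were called higher and 4.11% lower, beside 5.71% of the lincRNAs in each direction. Among genes outside X and Y with a mean count of 50 or more, 9.24% were called, beside 11.4% of the lincRNAs. The median log2 fold change was 0.06 over the lincRNAs and -0.01 over all genes tested. The groups did not overlap for 10 lincRNAs (14.3%), beside 25.7% of all genes. In both comparisons the share of lincRNAs called in either direction was near that of genes with a mean count of 50 or more. The share without overlap lay below that of all genes, which were not matched for count.

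Both counts rest on the threshold as set. When the test itself asked for a log2 fold change beyond 0.5 (glmTreat), none of the 70 lincRNAs passed in either comparison, and the adjusted p of the 14 calls ranged from 0.226 to 1. Without the fold threshold, 8 lincRNAs passed for OCsEo and 11 for OCsEoS. The shares of all genes that passed under these rules were not counted, so these numbers say nothing particular to lincRNAs.

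**Figure D2:**
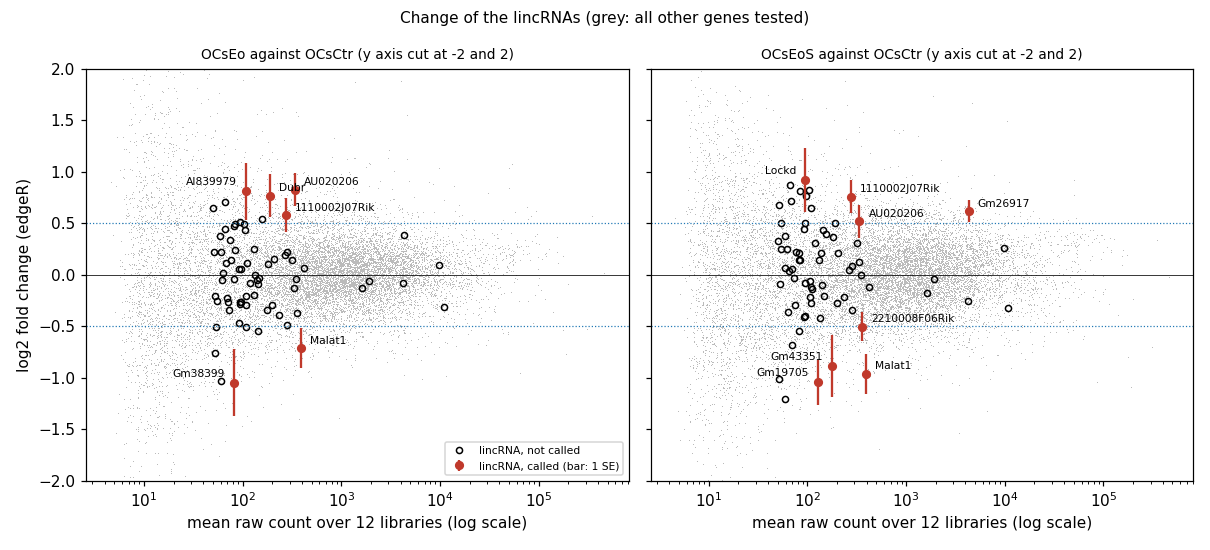
Log2 fold change of each gene against its mean raw count (log scale), OCsEo against OCsCtr on the left and OCsEoS against OCsCtr on the right. Filled red points with bars of 1 SE are the 6 and 8 lincRNAs called, open circles the other lincRNAs, grey dots all other genes tested, and dotted lines mark 0.5 and -0.5.

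Malat1, AU020206 and 1110002J07Rik were called in both comparisons and in the same direction, which is 50% of the OCsEo calls and 37.5% of the OCsEoS calls. Both comparisons share the OCsCtr libraries, and the share of all genes called in both was not counted. Malat1 (ENSMUSG00000092341, chr19:5795690-5802672, minus strand) makes an abundant nuclear RNA that sits in nuclear speckles and lacks an ordinary poly(A) tail. It measured 17.3, 14.9, 14.4 and 19.9 CPM in OCsCtr, 12.9, 12.1, 7.25 and 8.38 CPM in OCsEo and 6.98, 9.87, 6.32 and 10.9 CPM in OCsEoS. All 8 stimulated libraries lay below all 4 OCsCtr libraries. This gave a log2 fold change of -0.71 ± 0.19 (SE) in OCsEo (edgeR, adjusted p = 0.0144) and -0.96 ± 0.20 in OCsEoS (edgeR, adjusted p = 0.00132). The OCsEo call was lost without OCsCtr replicate 4 (edgeR, adjusted p = 0.0577) or OCsEo replicate 3 (edgeR, adjusted p = 0.0533), and the OCsEoS call held without each library in turn. Malat1 overlaps 3 other rows of the table, Gm37376, Gm27694 and Gm20417.

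AU020206 (ENSMUSG00000097415, chr7:75769038-75782099, minus strand) has no role that is stated here. Its level was 8.81, 5.94, 8.30 and 5.60 CPM in OCsCtr, 12.4, 11.9, 13.6 and 12.8 CPM in OCsEo and 8.76, 9.03, 10.9 and 12.3 CPM in OCsEoS. All OCsEo libraries lay above all OCsCtr libraries, and the lowest OCsEoS library lay within the OCsCtr range. Its log2 fold change was 0.82 ± 0.16 (SE) in OCsEo (edgeR, adjusted p = 0.00142) and 0.52 ± 0.16 in OCsEoS (edgeR, adjusted p = 0.0259). The OCsEo call held without each library, whereas the OCsEoS call was lost without OCsCtr replicate 2 or 4 or OCsEoS replicate 3 or 4, with an adjusted p (edgeR) of up to 0.0964. The nearest protein-coding gene, Akap13, lies 14429 bases away on the opposite strand and fell in OCsEoS, with a log2 fold change of -0.59 ± 0.17 (edgeR, adjusted p = 0.0177).

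1110002J07Rik (ENSMUSG00000097134, chr10:66912489-66920258, minus strand) is a 4-exon transcript. It measured 5.86, 5.25, 7.51 and 5.01 CPM in OCsCtr, 8.94, 9.73, 9.05 and 7.55 CPM in OCsEo and 9.50, 8.83, 9.56 and 12.04 CPM in OCsEoS. Neither stimulated group overlapped OCsCtr. On the log2 scale the fold change was 0.58 ± 0.16 (SE) in OCsEo (edgeR, adjusted p = 0.0166) and 0.76 ± 0.16 in OCsEoS (edgeR, adjusted p = 0.00196). Without OCsCtr replicate 2 or 4 the OCsEo call was lost (edgeR, adjusted p = 0.0542 and 0.0616), and the OCsEoS call held without each library.

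**Figure D3:**
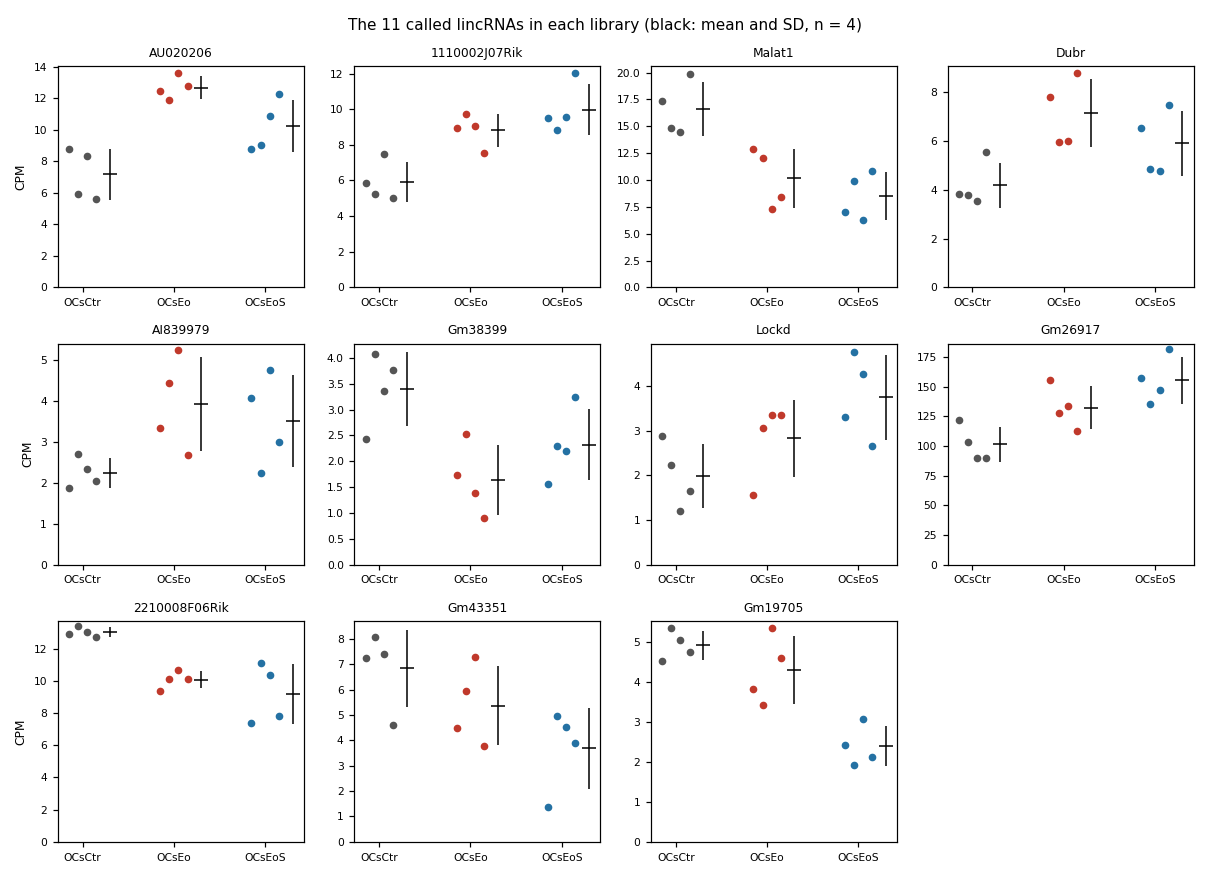
Level in CPM of the 11 lincRNAs called in either comparison, in each of the 12 libraries (points) with the group mean and SD (black). The 8 stimulated libraries of Malat1 lie below, and those of 1110002J07Rik above, every OCsCtr library.

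Dubr, AI839979 and Gm38399 were called for OCsEo alone, which does not show that they differed between the stimulated groups. Dubr (ENSMUSG00000022639, chr16:50719294-50732773), described in muscle cell differentiation, measured 3.81, 3.80, 3.53 and 5.54 CPM in OCsCtr, 7.77, 5.93, 6.00 and 8.77 CPM in OCsEo and 6.51, 4.83, 4.75 and 7.46 CPM in OCsEoS. All OCsEo libraries lay above OCsCtr, and OCsEoS overlapped it. For Dubr the log2 fold change was 0.77 ± 0.21 (SE) in OCsEo (edgeR, adjusted p = 0.0141) and 0.50 ± 0.21 in OCsEoS (edgeR, adjusted p = 0.0961). The call was lost without OCsEo replicate 4 (edgeR, adjusted p = 0.0524). AI839979 (ENSMUSG00000107355, chr5:31569595-31571397) measured 1.87, 2.70, 2.33 and 2.05 CPM in OCsCtr, 3.35, 4.44, 5.23 and 2.67 CPM in OCsEo and 4.06, 2.23, 4.75 and 3.00 CPM in OCsEoS. The lowest OCsEo library lay just under the highest OCsCtr library. The log2 fold change of 0.81 ± 0.28 in OCsEo (edgeR, adjusted p = 0.0489) was no longer called without any 1 OCsCtr library, without OCsEo replicate 1, 2 or 3 or without OCsEoS replicate 1, with an adjusted p of up to 0.173.

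Gm38399 (ENSMUSG00000090399, chr1:135606447-135688105) lies within Nav1 on the same strand. It measured 2.43, 4.07, 3.36 and 3.76 CPM in OCsCtr, 1.73, 2.53, 1.38 and 0.901 CPM in OCsEo and 1.57, 2.29, 2.20 and 3.24 CPM in OCsEoS. One OCsEo library lay within the OCsCtr range. The log2 fold change in OCsEo was -1.05 ± 0.33 (SE, edgeR, adjusted p = 0.0300), beside -0.45 ± 0.15 for Nav1 (edgeR, adjusted p = 0.0400). The Gm38399 call was lost without OCsCtr replicate 2, 3 or 4 or OCsEo replicate 1, 3 or 4, with an adjusted p (edgeR) of up to 0.0894. How many of its reads came from Nav1 was not tested.

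Gm19705, Gm26917, Lockd, Gm43351 and 2210008F06Rik were called for OCsEoS. Gm19705 (ENSMUSG00000097113, chr1:136670769-136690804) measured 4.54, 5.37, 5.06 and 4.76 CPM in OCsCtr, 3.83, 3.43, 5.36 and 4.61 CPM in OCsEo and 2.42, 1.94, 3.09 and 2.13 CPM in OCsEoS. The OCsEoS libraries lay below those of both other groups. Against OCsCtr the log2 fold change was -1.04 ± 0.22 (SE) in OCsEoS (edgeR, adjusted p = 0.00179), a call that held without each library, and -0.20 ± 0.21 in OCsEo (edgeR, adjusted p = 0.603). Between OCsEoS and OCsEo it was -0.85 ± 0.22 (edgeR, adjusted p = 0.0953), and DESeq2 called this difference (adjusted p = 0.0357).

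Lockd (ENSMUSG00000098318, chr6:134929092-134956798) is transcribed downstream of Cdkn1b, a cell cycle inhibitor, 3579 bases from it on the same strand. It measured 2.88, 2.23, 1.21 and 1.65 CPM in OCsCtr, 1.55, 3.06, 3.36 and 3.36 CPM in OCsEo and 3.31, 4.78, 4.27 and 2.65 CPM in OCsEoS. The lowest OCsEoS library lay below the highest OCsCtr library. The log2 fold change in OCsEoS was 0.92 ± 0.32 (SE, edgeR, adjusted p = 0.0402), while that of Cdkn1b was -0.19 ± 0.10 (edgeR, adjusted p = 0.201). The Lockd call was lost without OCsCtr replicate 2, 3 or 4 or OCsEoS replicate 1, 2 or 3, with an adjusted p (edgeR) of up to 0.123. A replicate block in the fit also lost the Lockd call (edgeR, adjusted p = 0.0545).

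2210008F06Rik (ENSMUSG00000097165, chr11:77489854-77491409) starts 176 bases from Ankrd13b and is transcribed away from it. It measured 12.9, 13.4, 13.1 and 12.7 CPM in OCsCtr, 9.38, 10.1, 10.7 and 10.1 CPM in OCsEo and 7.40, 11.1, 10.4 and 7.84 CPM in OCsEoS, with both stimulated groups below OCsCtr. The log2 fold change in OCsEoS was -0.50 ± 0.14 (SE, edgeR, adjusted p = 0.0124), just past the fold threshold, and that of Ankrd13b was -0.53 ± 0.08 (edgeR, adjusted p = 9.77e-05). In OCsEo the values were -0.37 ± 0.14 (edgeR, adjusted p = 0.0723) and -0.36 ± 0.08 (edgeR, adjusted p = 0.00315). The 2210008F06Rik call was lost under 6 of 10 other settings, and without OCsCtr replicate 2 or 3 or OCsEoS replicate 1 or 4, where the log2 fold change was as small as -0.41. Gm43351 (ENSMUSG00000105769, chr3:130874073-130876824) measured 7.25, 8.07, 7.42 and 4.60 CPM in OCsCtr, 4.48, 5.96, 7.28 and 3.78 CPM in OCsEo and 1.35, 4.95, 4.54 and 3.88 CPM in OCsEoS. One OCsCtr library lay within the OCsEoS range. Its log2 fold change of -0.89 ± 0.30 (edgeR, adjusted p = 0.0382) was no longer called without OCsCtr replicate 1, 2 or 3 or OCsEoS replicate 1 or 4, with an adjusted p of up to 0.107.

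Gm26917 (ENSMUSG00000097971, chr17:39843013-39846341) has 1 exon and a GC content of 69.1%, the highest of the lincRNAs. It ends 11 bases before Rn18s-rs5, an 18S ribosomal RNA-related row. Gm26917 measured 121.7, 103.6, 89.8 and 90.2 CPM in OCsCtr, 155.6, 127.6, 133.5 and 112.5 CPM in OCsEo and 157.5, 135.1, 147.2 and 181.6 CPM in OCsEoS. The OCsEoS libraries lay above all OCsCtr libraries, and the lowest OCsEo library lay within the OCsCtr range. The log2 fold change was 0.62 ± 0.11 (SE) in OCsEoS (edgeR, adjusted p = 0.000343), and the call held without each library. In OCsEo it was 0.39 ± 0.11 (edgeR, adjusted p = 0.0162), under the fold threshold. Rn18s-rs5 had a log2 fold change of opposite sign, -0.45 ± 0.10 in OCsEoS (edgeR, adjusted p = 0.0022). Both rows can share reads with repeated ribosomal DNA, so their counts are uncertain.

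Among the other abundant lincRNAs, differences between groups were small. Gpr137b-ps (ENSMUSG00000097715, chr13:12619084-12650297), a pseudogene of Gpr137b, which encodes a lysosomal membrane protein, measured 352.4, 411.8, 402.4 and 346.7 CPM in OCsCtr, 293.4, 303.3, 334 and 286 CPM in OCsEo and 282.5, 318.1, 296.8 and 310.1 CPM in OCsEoS. Both stimulated groups lay below OCsCtr, with log2 fold changes of -0.32 ± 0.07 (SE, edgeR, adjusted p = 0.00281) and -0.33 ± 0.07 (edgeR, adjusted p = 0.00158), under the fold threshold. Gpr137b itself had log2 fold changes of -0.44 ± 0.07 in OCsEo (edgeR, adjusted p = 0.00034) and -0.41 ± 0.07 in OCsEoS (edgeR, adjusted p = 0.000452), also under the fold threshold, and reads of the pair may have been split by the counting. AI662270 had an adjusted p (edgeR) of 0.0111 in OCsEoS at a log2 fold change of 0.26, with OCsEoS libraries of 312.2 to 339.5 CPM above OCsCtr libraries of 249.1 to 290.5 CPM. 1810058I24Rik, also known as the micropeptide gene Stmp1, had an adjusted p (edgeR) of 0.00922 at -0.26, with 111.2 to 115.9 CPM in OCsEoS and 124.3 to 147.5 CPM in OCsCtr. 1700020I14Rik, also known as Cyrano, a noncoding RNA that directs the decay of miR-7, showed -0.06 ± 0.07 and -0.04 ± 0.07.

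**Figure D4:**
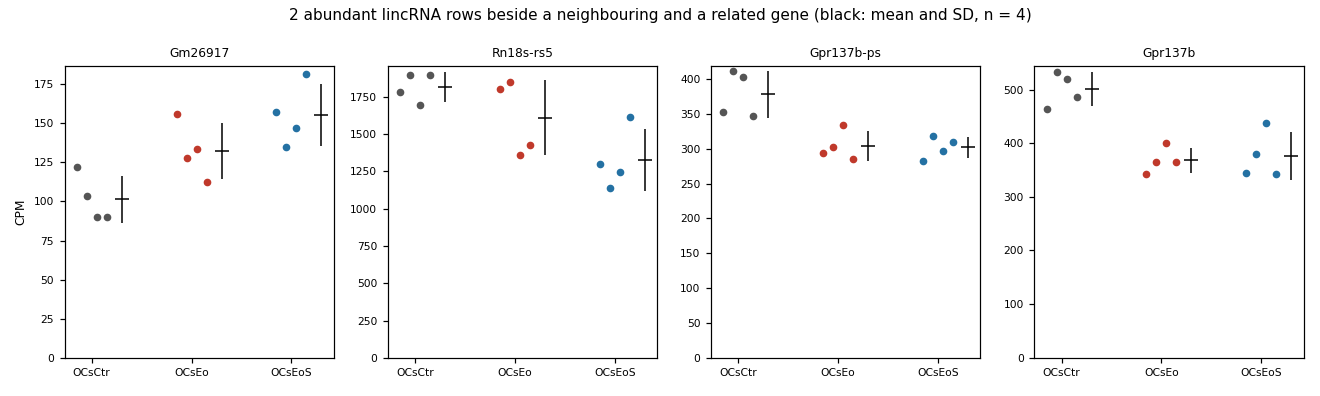
Level in CPM of Gm26917 beside its neighbor Rn18s-rs5, and of Gpr137b-ps beside Gpr137b, in each library (points) with the group mean and SD (black). Rn18s-rs5 lies lower in OCsEoS where Gm26917 lies higher, and Gpr137b-ps and Gpr137b both lie lower in the stimulated groups.

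A list of 55 noncoding RNAs with described roles, which does not hold Dubr or Lockd, was read as well, of which 50 were in the table, 31 were tested and 9 belonged to the 70 lincRNAs. Of the 31, 0 were called higher in either comparison, beside 3.27% and 3.63% of all genes. For OCsEo 1 of the 31 was called lower, Malat1, beside 2.61% of all genes. For OCsEoS 2 were called lower, Malat1 and Gm6637, beside 4.11%. Gm14005 and Tug1, outside the 70, were lower at a size under the fold threshold. For Gm14005 the log2 fold change was -0.49 in OCsEo and -0.35 in OCsEoS (edgeR, adjusted p = 0.0075 and 0.0402). For Tug1 it was -0.33 in OCsEoS (edgeR, adjusted p = 0.00956). Gm6637, which has the biotype processed pseudogene and is not among the 70, had a mean raw count of 5.5. On average it measured 0.36 CPM in OCsCtr and 0.014 CPM, below the floor, in OCsEoS (log2 fold change -4.27 ± 1.36, edgeR, adjusted p = 0.0275). Neat1, the scaffold of paraspeckles, measured 3.68, 4.57, 4.48 and 5.01 CPM in OCsCtr and 3.10, 5.18, 2.20 and 2.80 CPM in OCsEoS, with overlapping groups (log2 fold change -0.42 ± 0.25, edgeR, adjusted p = 0.261). Pvt1, the neighbor of Myc, had a log2 fold change of 0.64 ± 0.38 in OCsEo (edgeR, adjusted p = 0.273). The snoRNA hosts Snhg12 and Snhg20 had log2 fold changes of 0.87 ± 0.33 and 0.81 ± 0.31 in OCsEoS (edgeR, adjusted p = 0.0589 and 0.062), and DESeq2 called both (adjusted p = 0.0367 and 0.0431). For the hosts Snhg6 and Epb41l4aos the values were 0.37 ± 0.19 and -0.14 ± 0.27 (edgeR, adjusted p = 0.195 and 0.772). AW112010, an interferon-inducible transcript of immune cells, showed 0.06 ± 0.33 in OCsEoS (edgeR, adjusted p = 0.931).

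The lincRNAs that were not called included some with large but uncertain differences. The absolute log2 fold change exceeded 0.5 for 15 of the 70 lincRNAs in OCsEo, of which 6 were called, and for 20 in OCsEoS, of which 8 were called. The share of all genes beyond 0.5 was not counted. The median absolute log2 fold change was 0.264 over the lincRNAs in OCsEo and 0.307 in OCsEoS. Over genes outside X and Y with a mean count of 50 or more, it was 0.183 and 0.209. The widest error was that of Gm1976, with 4.44, 2.82, 2.15 and 2.15 CPM in OCsCtr, 2.09, 1.60, 0.385 and 1.59 CPM in OCsEo and 1.14, 2.11, 1.72 and 0 CPM in OCsEoS. All stimulated libraries of Gm1976 lay below OCsCtr, and the fitted log2 fold changes were -1.03 ± 0.65 (SE, edgeR, adjusted p = 0.316) and -1.21 ± 0.65 (edgeR, adjusted p = 0.203). Gm29367 had the next lowest fitted value in OCsEoS apart from Gm19705, with -1.01 ± 0.42 (edgeR, adjusted p = 0.0872). Cep83os narrowly missed both thresholds in OCsEo, with 8.32, 11.6, 11.3 and 9.92 CPM in OCsCtr and 5.95, 5.69, 9.28 and 8.45 CPM in OCsEo, and a log2 fold change of -0.49 ± 0.17 (edgeR, adjusted p = 0.0525).

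C330006A16Rik measured 53.0, 52.4, 52.0 and 52.1 CPM in OCsCtr, with a coefficient of variation of 0.89% there, 6.88% in OCsEo and 11.6% in OCsEoS. It measured 43.4, 50.9, 49.7 and 47.3 CPM in OCsEo and 39.9, 44.7, 48.0 and 52.7 CPM in OCsEoS. The OCsEo libraries lay below OCsCtr, yet the log2 fold change of -0.13 ± 0.08 was small (edgeR, adjusted p = 0.325). Bvht, which is described in the commitment of heart cells, had log2 fold changes of 0.19 ± 0.16 in OCsEo and 0.05 ± 0.16 in OCsEoS (edgeR, adjusted p = 0.491 and 0.883). For 2010320M18Rik these were 0.07 ± 0.16 and -0.12 ± 0.16 (edgeR, adjusted p = 0.835 and 0.657).

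The third comparison set supernatant against cells directly. Between OCsEoS and OCsEo edgeR called none of the 70 lincRNAs, 8 (11.4%) had an unadjusted p under 0.05 beside 11.1% of all genes tested, and DESeq2 called 1, Gm19705. Over all genes, 0.0731% were called higher and 0.307% lower, and 0.449% of genes outside X and Y with a mean count of 50 or more were called. The groups did not overlap for 5 lincRNAs (7.14%), beside 5.47% of all genes. These were 1810058I24Rik and Gm19705, lower in OCsEoS, and 1810044D09Rik, Gm807 and 1700086O06Rik, higher in OCsEoS.

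Standard errors were smaller for lincRNAs with higher counts. The 31 lincRNAs with a mean count of 50 to 100 had a median SE of 0.33 on the log2 scale for OCsEo against OCsCtr, the 20 with 100 to 200 one of 0.24, the 13 with 200 to 1000 one of 0.16, and the 6 with over 1000 one of 0.07. In the lowest class 1 lincRNA was called in each comparison. A change of 0.5 was thus under 2 SE in that class and was not reliably detectable at this depth.

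The genes next to called lincRNAs were read as a description. A nearest protein-coding gene was tested for 56 of the 70, and 47 of the 70 lay within 10 kb of their nearest coding gene. Over all 55 distinct neighbors tested, 2 were called for OCsEo, beside 3.27% of all genes called higher and 2.61% lower. For OCsEoS 5 neighbors were called, beside 3.63% of all genes called higher and 4.11% lower. Of the 5 lincRNAs called for OCsEo with a tested neighbor, 0 had a called neighbor. Of the 7 called for OCsEoS, 2 had one, 2210008F06Rik with Ankrd13b, which fell as well, and AU020206 with Akap13, which fell while AU020206 rose.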

How the data were processed

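Bulk RNA-seq. of 12 libraries, 4 each of OCsCtr, OCsEo and OCsEoS, was analysed from the deposited raw counts per gene. The authors cleaned the reads with fastp, aligned them with HISAT2 2.0.5 to GRCm38/mm10 and counted them with featureCounts; the strand setting and annotation release are not given in the sources used here. The gene lengths deposited beside the counts were used for levels per kb. The labels and the paper differ in the stated concentrations of M-CSF and RANKL, which are therefore not printed.

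Genes were filtered with edgeR's filterByExpr (minimum count 10), which kept 13681 genes and all 70 lincRNAs, TMM factors of 0.968 to 1.03 scaled the libraries and entered the CPM. All 12 libraries were fitted together in R 4.3.3 with edgeR 4.0.16, without a replicate block, and each comparison used the quasi-likelihood F-test with Benjamini-Hochberg adjustment over all genes tested. DESeq2 1.42.0 was an alternative. Methods were tested on simulated data. As first set, with changed genes drawn from all genes tested, this test fell short of its pass mark, and the draw was then limited to genes with a mean count of 50 or more, where the same mark was passed. There edgeR recovered 94 of 107 simulated log2 changes of 1 and 93 of 93 of 2. Smaller changes, such as most of those called here, were not simulated. Floors cover counting error only. Replicates differed by more than sampling noise (chi-square per degree of freedom 9.99 to 35.7 over 18 pairs).

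The lincRNAs, gene lists and tests were chosen with earlier results of these data known. Named were all lincRNAs called in any comparison, the 10 with the highest level per kb, the listed lincRNAs with described roles, and 3 on each side of the count threshold. Other lincRNAs named, such as those whose groups did not overlap between OCsEoS and OCsEo, were chosen after their values were seen. Alternatives covered other tools, scaling, filters, thresholds, a replicate block, a gene length trend, mitochondrial genes, membership and each library left out in turn. A membership by vM21 biotype and unadjusted p-values were added after seeing the data.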

Additional observations from a re-analysis of the deposited data

Results flagged for a closer look

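In 7 of 210 groups of 4 libraries (3.33%), 1 library stood apart from the others by Dixon's test, where chance gives about 1 in 20. Dubr was high in OCsCtr replicate 4, with 5.54 CPM beside 3.53 to 3.81 CPM in the other OCsCtr libraries. Lockd was low in OCsEo replicate 1, with 1.55 CPM beside 3.06 to 3.36 CPM. Snhg20 was high in OCsCtr replicate 3, with 2.62 CPM beside 1.53 to 1.59 CPM. Gm28901 was high in OCsEoS replicate 3, with 8.67 CPM beside 1.77 to 2.74 CPM, and 1810044D09Rik was high in the same library, with 2.43 CPM beside 1.85 to 1.88 CPM. Bvht was low in OCsEoS replicate 1, with 6.23 CPM beside 8.05 to 8.37 CPM. A230028O05Rik was low in OCsEoS replicate 2, with 1.59 CPM beside 3.06 to 3.32 CPM. For none of the 70 lincRNAs did the libraries of OCsEo and OCsEoS lie on opposite sides of OCsCtr without overlap.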

How the results depend on the processing

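None of the 14 calls changed sign under an alternative. Of the 44 fold changes compared, 7 did, all of them uncalled and near 0, and the cause was not tested. With the gene length trend taken out, 1700020I14Rik gave 0.041 in OCsEo and 0.086 in OCsEoS, 2010320M18Rik -0.018 in OCsEo, Bvht -0.061 and AW112010 -0.065 in OCsEoS. Leaving out 1 library at a time, 2010320M18Rik ranged from -0.027 to 0.227 in OCsEo and from -0.215 to 0.043 in OCsEoS, and in OCsEoS Bvht ranged from -0.054 to 0.145, Epb41l4aos from -0.341 to 0.006 and AW112010 from -0.112 to 0.343. With the fold threshold inside the test (glmTreat), the 4 higher and 2 lower calls for OCsEo and the 4 higher and 4 lower calls for OCsEoS all became 0, since this test asks for more than the same cut-off applied afterwards. With a mean count of 200 or more as membership, 19 lincRNAs remained, and 2 were called higher and 1 lower for OCsEo and 3 higher and 2 lower for OCsEoS. Among the 44 lincRNAs that overlap no other gene, 3 were called higher and 0 lower for OCsEo, and 3 higher and 3 lower for OCsEoS. DESeq2 called 4 higher and 2 lower for OCsEo, 6 higher and 3 lower for OCsEoS, and 1 lincRNA lower in OCsEoS than in OCsEo. At an unadjusted p under 0.05 with the same fold threshold, added after seeing the data, 6 were higher and 4 lower for OCsEo. For OCsEoS 8 were higher and 6 lower, and 3 were higher and 2 lower between OCsEoS and OCsEo. The shares of all genes called under these settings were not counted. Leaving out 1 library at a time gave 2 to 4 higher and 0 to 3 lower calls for OCsEo, 2 to 5 higher and 2 to 5 lower calls for OCsEoS, and 0 in either direction between OCsEoS and OCsEo. The labels do not state whether libraries of the same replicate number were paired. The correlation of deviations between such libraries was -0.044 to 0.094, and 0 of 12 pairs exceeded 0.1. Yet 9 of 12 libraries correlated best with a library of their own number, although only 2 of the 8 libraries compared with each carried that number. Whether the numbers mark pairs was thus not settled. With a replicate block, 4 lincRNAs were called higher and 2 lower for OCsEo, 3 higher and 4 lower for OCsEoS, and 0 between OCsEoS and OCsEo, and Lockd lost its call (edgeR, adjusted p = 0.0545). AI839979 lost its call with the gene length trend taken out. The median SE was largest for the 31 of the 70 lincRNAs with a mean count under 100.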
